A study of Mus musculus with 48 samples.

Results

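Tmc6, Btg3, Fhip1a, Atp10b and the long non-coding RNAs 2900052N01Rik and 9630013A20Rik are 6 of the 55357 genes in the deposited count table. They were chosen by their readout in the contralateral dentate gyrus, as genes whose difference between kainate-injected and saline-injected mice was still present 7 or 14 days after injection while most others had faded. All 6 passed the filter on low counts, as did 21390 genes in all. Because the contralateral comparison chose them, their contralateral values are given as a description without a test. Tests are reported only for the injected side, whose libraries did not enter the choice. Those libraries come from the same mice, so these tests are not fully independent of the choice.

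The libraries came from wild-type C57BL/6J mice that received 1 unilateral injection of kainate or saline into the hippocampus, a model of mesial temporal lobe epilepsy in which the glutamate receptor agonist kainate induces status epilepticus (SE). Each of 24 mice gave 1 library from the dorsal dentate gyrus of the injected side, termed the epileptogenic zone (EZ), and 1 from the contralateral side, termed the peri-ictal zone (PIZ). Region, injection (kainate or saline) and day (3, 7 or 14) defined 12 groups of 4 mice, 2 male and 2 female. The series record gives the age as 6 to 8 weeks and the methods give an older range. Mice were not pooled, and all kainate-injected mice had shown behavioral seizures, scored without electroencephalography. The saline-injected mice share the surgery and the strain, so that kainate is the only stated difference within a region and day.

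The 6 genes have different known roles. Tmc6, also called EVER1, encodes a transmembrane channel-like protein of the endoplasmic reticulum that works in a complex with Tmc8 (EVER2) and the calcium-binding protein Cib1, and loss of either EVER protein in humans causes a skin susceptibility to papillomaviruses. Btg3 is an anti-proliferative member of the BTG and TOB family, whose proteins contact the CCR4-NOT complex that shortens the poly-A tails of messenger RNA. Fhip1a encodes an adaptor of the FHF complex, which couples early endosomes to the dynein motor. Atp10b encodes a lipid flippase of late endosomes and lysosomes, one of the P-type pumps that move phospholipids and glycolipids between membrane leaflets. 9630013A20Rik, also called lncOL1, is a long non-coding RNA of newly formed oligodendrocytes, the glia that make myelin. 2900052N01Rik is a long non-coding RNA.

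Promoters from 250 bases before to 50 bases after the start were found in the RefSeq table (GRCm38.p6) for 5 of the 6 genes, all but Atp10b. Each sequence matched GRCm39, the build of the counts, at 1 place. The 3 promoters printed here are those of the protein-coding members whose contralateral difference had 1 direction at all 3 days, Tmc6 at chr11:117671469-117671768, the second Btg3 entry at chr16:78173649-78173948 and Fhip1a at chr3:85653467-85653766, all on the minus strand of GRCm39 and written 5′ to 3′. Capitals mark matches on either strand to the E-box CACGTG, the GC box GGGCGG, the TATA box TATAAA and the CCAAT box CCAAT.
Tmc6: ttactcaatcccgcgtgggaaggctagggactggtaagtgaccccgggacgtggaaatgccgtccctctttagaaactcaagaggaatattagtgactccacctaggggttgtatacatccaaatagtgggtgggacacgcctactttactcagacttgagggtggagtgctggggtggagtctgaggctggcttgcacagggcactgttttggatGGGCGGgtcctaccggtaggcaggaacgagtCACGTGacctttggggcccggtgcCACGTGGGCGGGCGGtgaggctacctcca
Btg3: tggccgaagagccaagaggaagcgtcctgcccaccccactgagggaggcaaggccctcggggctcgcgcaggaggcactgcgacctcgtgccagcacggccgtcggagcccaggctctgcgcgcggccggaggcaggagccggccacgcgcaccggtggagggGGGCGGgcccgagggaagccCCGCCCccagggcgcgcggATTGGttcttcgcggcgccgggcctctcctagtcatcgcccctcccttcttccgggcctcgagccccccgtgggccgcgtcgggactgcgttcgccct
Fhip1a: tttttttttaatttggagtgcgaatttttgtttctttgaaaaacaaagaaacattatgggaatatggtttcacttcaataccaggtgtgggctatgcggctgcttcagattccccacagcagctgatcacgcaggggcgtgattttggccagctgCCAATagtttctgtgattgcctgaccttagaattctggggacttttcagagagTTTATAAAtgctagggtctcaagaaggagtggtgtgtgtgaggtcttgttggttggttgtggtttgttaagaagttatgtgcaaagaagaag
The cyclic AMP response element TGACGTCA and the AP-1 site TGANTCA were also searched and matched in none of the 6 promoter entries of the 5 genes.

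Tmc6 held 2 E-boxes, at -3 and 22 from the start base, and 3 GC boxes, of which the 1 at 27 overlaps the second E-box. An E-box was found in 7.15% and a GC box in 35.7% of all 32851 promoters of this length. In Btg3 the printed entry begins at an annotated transcript start and held 2 GC boxes and 1 CCAAT box, a motif that 37.4% of all promoters hold. Its GC content of 75.7% is higher than in 96.7% of promoters, whereas the Fhip1a promoter has a GC content of 42%, higher than in 14.1%. Fhip1a held a CCAAT box and 2 overlapping TATA boxes, which 13.6% of promoters hold, and its start lies 57 bases from the nearest annotated transcript start. The first Btg3 entry and 2900052N01Rik each held 1 CCAAT box, and 9630013A20Rik held no match to the 6 motifs. These are matches of letters in a window and not measured sites.

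Library totals lay between 17762656 and 25712975 counts. Values below are CPM, a gene's count scaled to a common library size by TMM, the trimmed mean of M values, and the error of a log2 fold change is the standard error (SE, n = 4 mice per group) of 1 edgeR quasi-likelihood model over all 48 libraries, with Benjamini-Hochberg adjustment. A call required both an adjusted p below 0.01 and a change of more than 1.5-fold. Granule cell markers, which define the dissected tissue, summed to between 541 and 1120 CPM in the saline libraries. Among EZ kainate libraries, mice 21 and 35 at day 7 and mouse 27 at day 14 stood apart. Their granule cell sums were 196, 352 and 535 CPM and their microglial sums 10300, 7450 and 4880 CPM, against microglial sums of 2590 and 3800 CPM in the other day 7 mice and from 659 to 1060 CPM in the other day 14 mice. Granule cell sums in those mice were 892 and 858 CPM at day 7 and 598 to 1070 CPM at day 14. Values without mice 21, 27 and 35 are given beside the EZ results of the 6 genes and of the gene lists that they change. At day 3, immediate early genes, which neurons transcribe on activity, summed to 271 CPM in the EZ of kainate mouse 44, inside the saline range of 198 to 417 CPM, and to 1040 to 1540 CPM in the other 3 kainate mice. In bulk tissue, fewer cells of a type and less RNA per cell cannot be told apart.

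Tmc6 was the member that was higher in kainate mice at every day and on both sides (ENSMUSG00000025572.19, chromosome 11, 117656810 to 117673080, minus strand, GRCm39). In saline mice it lay between 3.81 and 6.32 CPM over the 12 PIZ libraries. In the PIZ of kainate mice the 4 libraries had 21.9, 22.1, 27.8 and 38.4 CPM at day 3. At day 7 they had 10.8, 15.8, 20.6 and 21.1 CPM, and at day 14 they had 13.9, 15.6, 17.7 and 19.5 CPM. Every contralateral kainate library was thus above every saline library at each of the 3 days. The fitted log2 fold change was 2.72 (SE 0.25) at day 3, 1.80 (SE 0.24) at day 7 and 1.64 (SE 0.24) at day 14. Tmc6 kept 66.3% of its day 3 log2 fold change at day 7 and 60.3% at day 14. Leaving out single mice and the other alternatives moved the day 14 value to between 1.56 and 1.73.

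On the injected side Tmc6 was also upregulated at all 3 days. Saline EZ libraries lay between 3.88 and 6.78 CPM. The EZ kainate libraries had 8.34, 9.69, 12.2 and 21.1 CPM at day 3, of which the highest was mouse 44, also the highest in the PIZ. Without mouse 44 the day 3 log2 fold change below was 0.97 and was still called (adjusted p = 0.0003). They had 8.62, 14.9, 16.8 and 20.6 CPM at day 7 and 9.92, 12, 13.4 and 15.2 CPM at day 14. No kainate library overlapped with a saline library of its day. The log2 fold change was 1.32 (SE 0.24, edgeR adjusted p = 2.81e-05) at day 3, 1.47 (SE 0.24, adjusted p = 2.82e-06) at day 7 and 1.07 (SE 0.24, adjusted p = 0.00437) at day 14. The day 14 call was not kept in the model of only the 8 compared libraries, where the value was 1.08 with an adjusted p of 0.422, or without mouse 14, 24, 27, 28, 31 or 39, where the value lay between 0.97 and 1.17. Without mice 21, 27 and 35 together it was 1.18 with an adjusted p of 0.0137. The values at day 7 and day 14 differed by -0.41 (SE 0.33), which was not called.

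**Figure D1:**
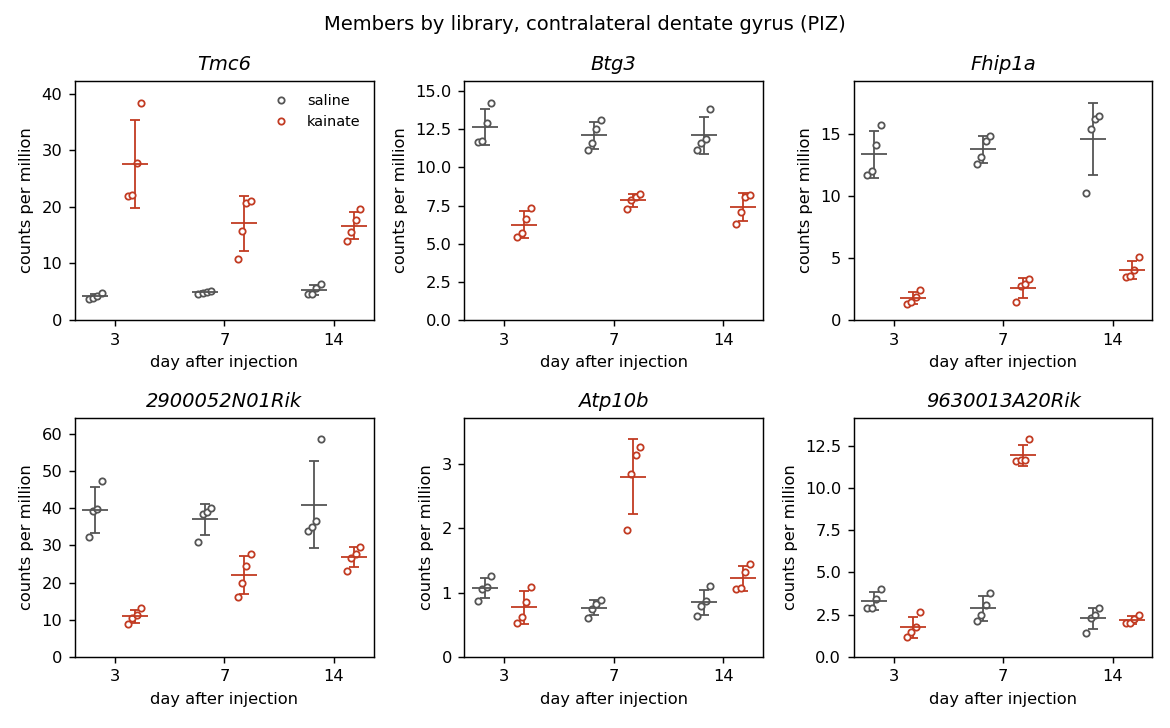
CPM of the 6 genes in the 24 PIZ libraries by day after injection; open circles are libraries, the bar and whiskers are the mean and SD of 4 mice. Tmc6 was higher, and Btg3 and Fhip1a lower, in every kainate library than in every saline library at each day, and Atp10b and 9630013A20Rik stood out in kainate mice at day 7.

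Btg3 was the member with the smallest standard error (ENSMUSG00000022863.16, chromosome 16, 78129271 to 78174312, minus strand). Its contralateral saline values ran from 11.1 to 14.2 CPM. In the PIZ of kainate mice it had 5.42, 5.69, 6.63 and 7.31 CPM at day 3. The day 7 libraries had 7.25, 7.86, 8.06 and 8.24 CPM, and the day 14 libraries 6.31, 7.09, 8.06 and 8.19 CPM. All 12 kainate libraries were below all 12 saline libraries. The log2 fold change was -1.01 (SE 0.10) at day 3, -0.62 (SE 0.10) at day 7 and -0.71 (SE 0.10) at day 14, so that 70% of the day 3 value was present at day 14. In the edgeR fit, Btg3 and Tmc6 were the 2 genes that passed both thresholds in the PIZ at all 3 days. This describes the contrast that chose the genes and is not a test. At day 7 the fall of Btg3 was 1.54-fold, close to the 1.5-fold limit. Without 1 mouse the log2 value lay between -0.66 and -0.58, at its weakest just under that limit.

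On the injected side Btg3 overlapped between groups at day 3 and was lower in kainate mice at days 7 and 14, by less than 1.5-fold. At day 3 the EZ kainate libraries had 8.25, 10.2, 10.3 and 10.4 CPM and the saline libraries 9.99, 10.2, 11.2 and 11.3 CPM. These overlapped, and the log2 fold change was -0.12 (SE 0.10, 95% interval -0.32 to 0.07, adjusted p = 0.307). The lowest library was mouse 44, without which the value was -0.05 (adjusted p = 0.694). Day 7 values of 7.88, 8.57, 8.70 and 9.79 CPM lay below the saline range of 10.3 to 11.3 CPM. The day 14 kainate libraries had 8.52, 8.99, 9.48 and 10.2 CPM, below saline libraries of 10.5 to 12.3 CPM. The edgeR log2 fold change was -0.32 (SE 0.10, adjusted p = 0.00616) at day 7 and -0.33 (SE 0.10, adjusted p = 0.0377) at day 14, neither of which reached the 1.5-fold limit.

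Fhip1a was the member with the lowest contralateral level relative to saline (ENSMUSG00000051000.18, chromosome 3, 85567368 to 85724598, minus strand). Saline PIZ libraries lay between 10.3 and 16.5 CPM. The kainate PIZ libraries had 1.32, 1.43, 1.90 and 2.43 CPM at day 3 and 1.46, 2.76, 2.93 and 3.35 CPM at day 7. At day 14 they had 3.52, 3.54, 4.06 and 5.08 CPM, still below every saline library. Fitted log2 fold changes were -2.92 (SE 0.37), -2.39 (SE 0.36) and -1.85 (SE 0.35) at days 3, 7 and 14, and 63.3% of the day 3 value was present at day 14.

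Fhip1a was lower in the EZ too, with a wide spread between mice. The EZ kainate libraries had 1.15, 2.69, 3.83 and 6.28 CPM at day 3, against 8.90 to 14.1 CPM in saline. They had 1.99, 2.43, 5.71 and 6.98 CPM at day 7, against 9.14 to 14.2 CPM, and the 2 lowest were mice 35 and 21. At day 14 they had 2.31, 4.59, 6.29 and 9.90 CPM, against 13.6 to 16.0 CPM, with the lowest in mouse 27. No kainate library overlapped with the saline libraries of its day. The gene fell by 1.70 (SE 0.35, edgeR adjusted p = 1.33e-04) at day 3 and by 1.44 (SE 0.34, adjusted p = 5.6e-04) at day 7 on the log2 scale. At day 14 the log2 fold change was -1.36 (SE 0.34, adjusted p = 0.0113), just short of the threshold. It was called with DESeq2 (adjusted p = 0.00306) and without mouse 40 (-1.76, adjusted p = 0.00189). The same held in limma-voom with library quality weights and mouse as a random block (-1.42, adjusted p = 0.00122). It was -1.08 without mice 21, 27 and 35, and over the alternatives the adjusted p lay between 0.00122 and 0.56. Without mice 21, 27 and 35 the day 7 value was -0.86 with an adjusted p of 0.0431 and was no longer called. A model of only the 8 libraries of day 7 also lost the call, with an adjusted p of 0.0181. Counts of Fhip1a are uncertain where its exons overlap the same-strand gene Gm37240, which in the EZ was higher in kainate mice by 0.75 at day 3 and 0.89 at day 7 (log2, adjusted p = 0.000154 and 1.04e-05).

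2900052N01Rik was the most abundant member per length, at 9.11 ± 1.51 CPM per kilobase of exon (SD, n = 24 saline libraries), and the remaining 5 lay between 0.0998 (Atp10b) and 2.51 (Fhip1a) CPM per kilobase (ENSMUSG00000099696.7, chromosome 9, 46823892 to 46838665, plus strand). Its contralateral difference shrank with time. The PIZ kainate libraries had 8.85, 10.5, 11.2 and 13.2 CPM at day 3, and the saline libraries of that day 32.1 to 47.3 CPM. At day 7 the kainate libraries had 16.2, 19.8, 24.4 and 27.6 CPM, and at day 14 they had 23.1, 26.7, 27.8 and 29.6 CPM. Saline libraries lay between 30.9 and 39.9 CPM at day 7 and between 33.8 and 58.5 CPM at day 14, so that the groups remained apart. Fitted log2 fold changes at days 3, 7 and 14 were -1.86 (SE 0.18), -0.75 (SE 0.18) and -0.61 (SE 0.18). The gene kept 40.4% of its day 3 value at day 7 and 32.9% at day 14, where the value was -0.39 without saline mouse 39. At neither day did it pass both thresholds, although it belongs to the genes named as persistently altered.

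In the EZ the course of 2900052N01Rik was similar and could be tested. The kainate libraries had 5.59, 6.08, 7.73 and 9.93 CPM at day 3, 11.5, 12.2, 15.7 and 22.1 CPM at day 7, and 19.98, 21, 24.8 and 27.6 CPM at day 14. The saline EZ libraries lay between 31.3 and 40.7 CPM at all 3 days, above each of these. The gene fell by 2.32 (SE 0.19, edgeR adjusted p = 3.93e-11) at day 3 and by 1.09 (SE 0.18, adjusted p = 4.35e-06) at day 7 on the log2 scale. Without mice 21, 27 and 35 the day 7 value was -0.79 and still called (adjusted p = 0.00246). At day 14 the value was -0.54 (SE 0.18, adjusted p = 0.0752) and was not called. Between day 3 and day 7 the log2 fold change moved by 1.23 (SE 0.26, adjusted p = 0.0142), past the threshold under some alternatives. These were DESeq2 (adjusted p = 0.001), limma-voom with the mouse block, at least 10 counts in every library, and the fits without mouse 35, without mouse 44 or without mice 21, 27 and 35 together, and over all alternatives the adjusted p lay between 0.000499 and 0.0832. A same-strand gene, Gm31614, overlaps 2900052N01Rik and was also called downregulated in the EZ, at -3.04 at day 3 and -1.23 at day 7 (log2, adjusted p = 1.32e-05 and 0.00527), so reads of the 2 genes may be shared.

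**Figure D2:**
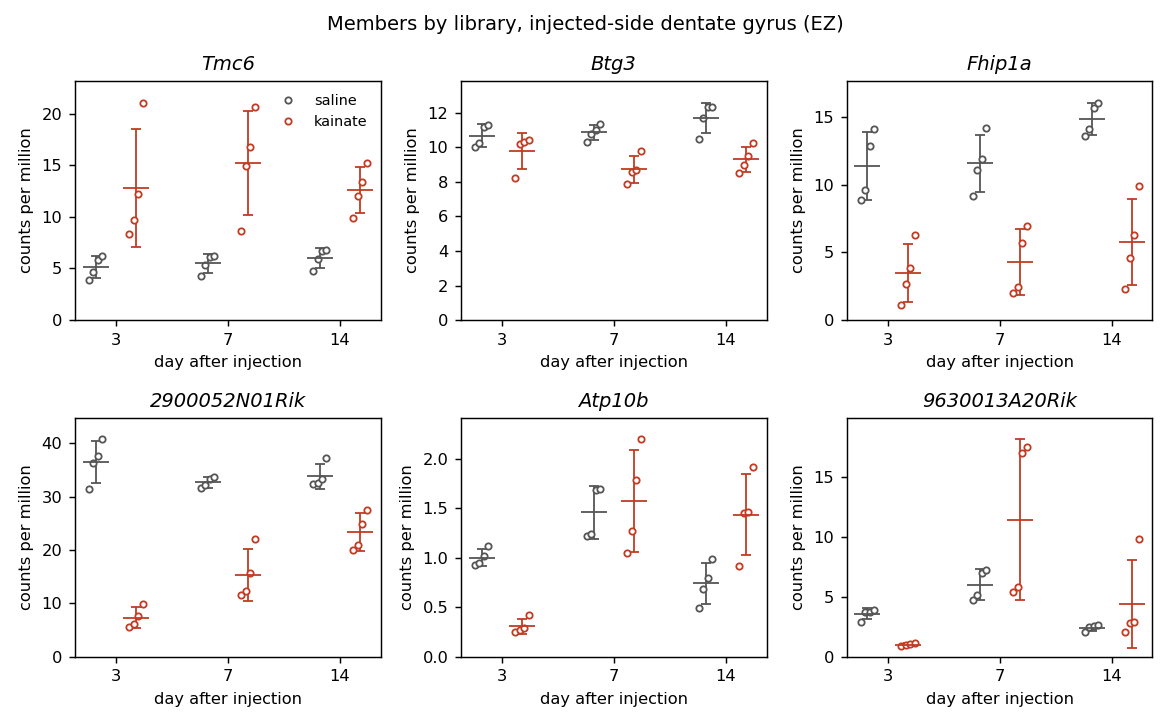
CPM of the 6 genes in the 24 EZ libraries by day after injection, drawn as for the PIZ with the mean and SD of 4 mice. Tmc6 was higher in kainate mice at each day, Btg3 overlapped with saline at day 3, and 9630013A20Rik fell into 2 high and 2 low kainate libraries at day 7.

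Atp10b and 9630013A20Rik did not hold 1 direction. Both had a negative log2 fold change at day 3 in each region and a positive one at day 7 in the PIZ. In the EZ the day 7 values were positive with all 4 kainate mice and negative without mice 21, 27 and 35. They were the 2 genes that passed the thresholds in the PIZ at day 7 with a sign opposite to day 3. This describes the contrast that chose them and is not a test. Their label as persistently altered describes the day 7 values only.

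9630013A20Rik (ENSMUSG00000115529.2, chromosome 14, 84696079 to 84713864, minus strand) had 1.15, 1.48, 1.74 and 2.62 CPM in the PIZ of kainate mice at day 3, below the 2.86 to 4.01 CPM of saline mice. At day 7 the kainate PIZ libraries had 11.6, 11.6, 11.7 and 12.9 CPM and the saline libraries 2.12, 2.49, 3.07 and 3.78 CPM. The 4 kainate values lay close together and far above the saline values. By day 14 they were 2.00, 2.01, 2.25 and 2.45 CPM, within the saline range of 1.42 to 2.90 CPM. Over the 3 days the log2 fold change was -0.92 (SE 0.35), 2.06 (SE 0.34) and -0.06 (SE 0.35). Without mice 21, 27 and 35 the day 7 value in the PIZ was 2.10.

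The EZ gave a less uniform picture for 9630013A20Rik. At day 3 the kainate libraries had 0.918, 0.943, 1.05 and 1.15 CPM, below 2.88 to 3.87 CPM in saline. The gene fell by 1.81 (SE 0.36, edgeR adjusted p = 1.08e-04) on the log2 scale. At day 7 mice 35 and 21 had 16.9 and 17.4 CPM, while mice 26 and 23 had 5.38 and 5.81 CPM, inside the saline range of 4.70 to 7.25 CPM. The log2 fold change of 0.92 (SE 0.32, adjusted p = 0.0138) was not called. It was called in limma-voom with library quality weights and mouse as a random block (1.19, adjusted p = 1.32e-05). The same held without mouse 23 or 26 (adjusted p = 0.00313 and 0.00262) and with at least 10 counts in every library. It was -0.11 with an adjusted p of 0.764 without mice 21, 27 and 35. At day 14 mouse 27 had 9.83 CPM and the other kainate libraries 2.05, 2.77 and 2.92 CPM, against 2.07 to 2.62 CPM in saline, and the value of 0.87 (SE 0.34, adjusted p = 0.15) became 0.09 without mice 21, 27 and 35.

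Atp10b (ENSMUSG00000055415.9, chromosome 11, 43040704 to 43153112, plus strand) had few counts, from 7 to 72 per library, which limits its precision. In the PIZ its kainate libraries had 0.519, 0.614, 0.859 and 1.09 CPM at day 3, overlapping with 0.875 to 1.25 CPM in saline. They had 1.97, 2.84, 3.13 and 3.26 CPM at day 7, all above the saline range of 0.605 to 0.883 CPM. At day 14 they had 1.05, 1.07, 1.31 and 1.45 CPM and overlapped with 0.634 to 1.1 CPM in saline. The log2 fold change was -0.47 (SE 0.25), 1.87 (SE 0.24) and 0.53 (SE 0.24).

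On the injected side Atp10b was at its lowest at day 3, with 0.254, 0.268, 0.295 and 0.421 CPM against 0.927 to 1.12 CPM in saline. It fell by 1.68 (SE 0.27, edgeR adjusted p = 6.04e-06) on the log2 scale. The day 7 kainate libraries, 1.05, 1.27, 1.78 and 2.19 CPM, overlapped with saline libraries of 1.22 to 1.70 CPM, and the log2 fold change was 0.12 (SE 0.23, 95% interval -0.34 to 0.58, adjusted p = 0.683). It turned to -0.33 (adjusted p = 0.377) without mice 21, 27 and 35, and to -0.09 without mouse 21 alone. At day 14 the kainate libraries had 0.919, 1.45, 1.46 and 1.92 CPM and the saline libraries 0.498 to 0.989 CPM, a log2 difference of 0.94 (SE 0.25, adjusted p = 0.0155) that was not called. In limma-voom with library quality weights and mouse as a random block it was called (adjusted p = 0.00521), as it was without mouse 40 (1.11, adjusted p = 0.0037). Over the alternatives the adjusted p lay between 0.0037 and 0.56.

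**Figure D3:**
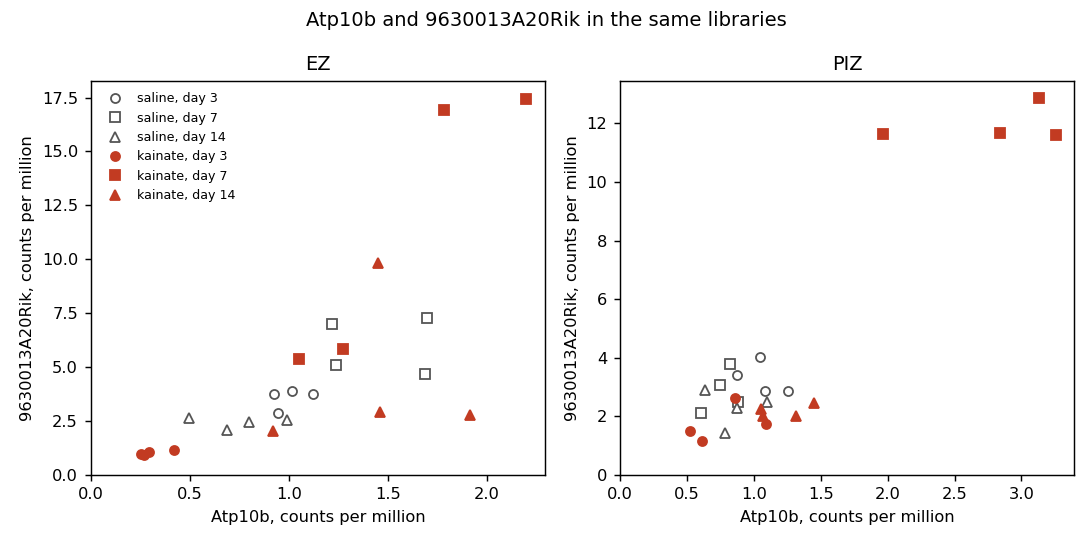
Atp10b against 9630013A20Rik, both in CPM, 1 point per library, for the EZ (left) and the PIZ (right); color gives the injection and shape the day. The 4 PIZ kainate libraries of day 7 lay apart from the other 20, whereas in the EZ the day 7 kainate libraries split into 2 with 16.9 and 17.4 CPM and 2 with 5.38 and 5.81 CPM of 9630013A20Rik.

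Tests on the injected side placed the 6 genes against the background of all tested genes. At day 3, 5 of 6 were called, Tmc6 up and Atp10b, Fhip1a, 2900052N01Rik and 9630013A20Rik down, where 24.7% of all tested genes were called. At day 7, 3 of 6 were called (Tmc6, Fhip1a and 2900052N01Rik) against 32.5% of all genes. At day 14, Tmc6 was the 1 member called of 6, against 2.36% of all genes. The difference in kainate effect between day 7 and day 3 was called for 2 of 6, against 0.145% of all genes. These were Atp10b at 1.79 (SE 0.35, edgeR adjusted p = 0.00758) and 9630013A20Rik at 2.73 (SE 0.49, adjusted p = 0.00317), both more positive at day 7. Over the alternatives the adjusted p lay between 0.000151 and 0.0694 for Atp10b and between 1.89e-07 and 0.0295 for 9630013A20Rik. Of the 16 fits that left out 1 mouse, Atp10b lost its call in 13 and kept it without mouse 23, 26 or 38, and 9630013A20Rik lost it without mouse 20, 21, 34 or 35. The saline EZ libraries of day 7 were themselves high for both genes, with 1.22 to 1.70 CPM of Atp10b against at most 1.12 CPM at days 3 and 14, and 4.70 to 7.25 CPM of 9630013A20Rik against at most 3.87 CPM.

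Between day 14 and day 7 the edgeR count of members called was 0 of 6, against 0.271% of all genes. At an unadjusted p under 0.05 there were 2 members, Atp10b and 2900052N01Rik, and 7081 of the 21390 tested genes. DESeq2 called 0 members and 898 genes of all, and limma-voom 1 member and 6378 genes of all. In saline mice, EZ day 14 against day 3 gave 0 called members and 0% of all genes called with edgeR. At an unadjusted p under 0.05 there were 0 members and 1236 genes of all, and DESeq2 and limma-voom called 0 members. The 6 genes therefore had no called difference between these days in saline mice, with estimates from -0.56 (9630013A20Rik) to 0.38 (Fhip1a).

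In the PIZ, the contrast that chose the genes, 4 of 6 passed both thresholds at day 3, 5 at day 7 and 2 at day 14, and 8.69%, 0.201% and 0.014% of all genes were called. The choice of the genes fixed these member counts, and nothing is read from them. Of the 1858 genes called in the PIZ at day 3, 30 were called at day 7 in the same direction and 2 at day 14. The median gene of the 1858 kept 43.5% of its day 3 log2 fold change at day 7 and 19.7% at day 14. Around the threshold for a day 14 call in the PIZ, the non-member Igfbpl1 was last inside it, with a log2 fold change of 1.88, and Cass4 (1.90), the member Fhip1a (-1.85) and Serinc2 (1.47) were first outside it.

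**Figure D4:**
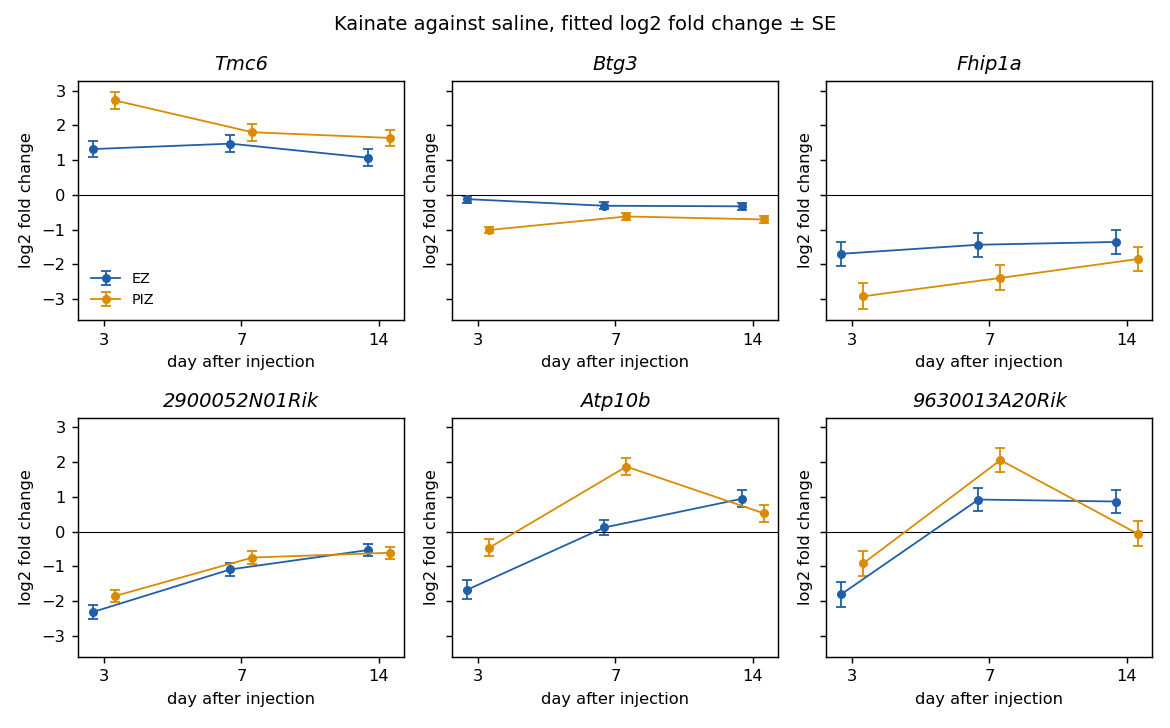
Fitted log2 fold change of kainate against saline, with its SE, by day after injection for the EZ and the PIZ. Tmc6, Btg3 and Fhip1a stayed on 1 side of 0 in the PIZ, 2900052N01Rik approached 0 in both regions, and Atp10b and 9630013A20Rik crossed 0 between day 3 and day 7, which in the EZ they did not without mice 21, 27 and 35.

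Comparing both sides of the same mouse showed where the regions parted. In kainate mice at day 3, Tmc6 was lower in the EZ than in the PIZ of all 4 mice, by a mean log2 difference of -1.15 ± 0.41 (SD, n = 4), and Btg3 was higher in the EZ of all 4 mice, by 0.64 ± 0.34. In saline mice of that day the differences had the opposite sign in all 4 mice, 0.27 ± 0.17 for Tmc6 and -0.24 ± 0.19 for Btg3. At day 7 the kainate differences had mixed signs. Tmc6 gave -0.183 ± 0.553, with the EZ lower in 3 of 4 mice, and Btg3 0.149 ± 0.205, with the EZ higher in 3 of 4. At day 14 the kainate difference was -0.40 ± 0.35 for Tmc6 and 0.33 ± 0.08 for Btg3, each with 1 sign in all 4 mice. Fhip1a gave 0.75 ± 0.72 at day 3 and 0.34 ± 0.91 at day 14, with mixed signs in both. For Atp10b and 9630013A20Rik at day 7, the EZ exceeded the PIZ in all 4 saline mice, by 0.86 ± 0.28 and 1.05 ± 0.57. In kainate mice of that day Atp10b was lower in the EZ of all 4, by -0.82 ± 0.58, and 9630013A20Rik was lower in 2 of 4. With mouse as a fixed block in edgeR, none of the 36 differences moved by more than the spread between mice. These differences share the PIZ values that chose the genes and were not tested.

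**Figure D5:**
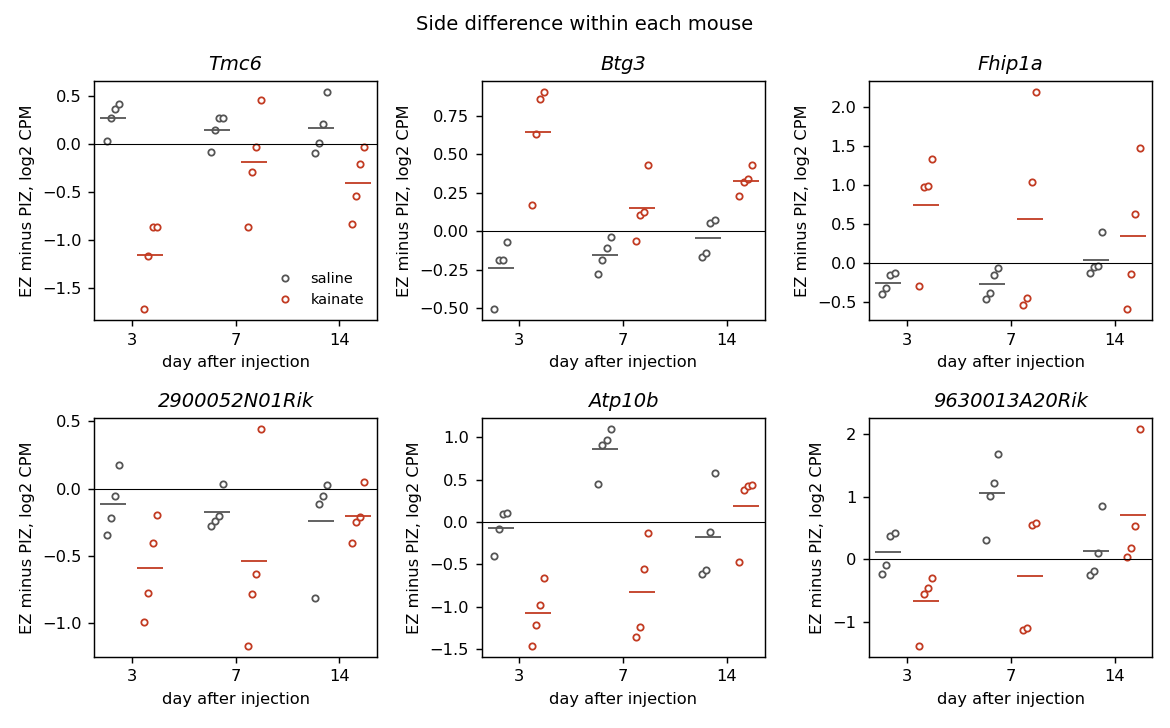
Difference EZ minus PIZ in log2 CPM within each mouse by day after injection; circles are mice and the bar is the mean of 4. At day 3 Tmc6 lay below 0 and Btg3 above 0 in all 4 kainate mice, the reverse of the saline mice.

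Relatives and partners of the members are given by family, and their PIZ counts at days 3, 7 and 14 stand against 8.69%, 0.201% and 0.014% of all genes called, shares at which few or no calls fall in lists of this size. As background for this and the later lists, 7641, 3104 and 1277 of the 21390 tested genes had an unadjusted p under 0.05 there. DESeq2 called 2086, 195 and 9 genes in the PIZ at the 3 days, and limma-voom 2788, 896 and 99. Of the TMC family and the EVER partners, 7 of 10 genes were tested. Cib1, the EVER partner, was the 1 of 7 called in the PIZ, upregulated at day 3 (by 0.63 on the log2 scale, SE 0.16, edgeR adjusted p = 0.00479), and in the EZ at days 3 and 7 (0.85 and 1.20, adjusted p = 6.58e-05 and 2.29e-07). Tmc8, the EVER2 gene, overlaps Tmc6 on the opposite strand, and reads were counted by strand. Tmc8 had 854 counts over all 48 libraries, which limits its precision, and reads on the wrong strand were not measured. It was called upregulated in the EZ, at 1.56 (adjusted p = 0.00316) on day 3 and 1.46 (adjusted p = 0.00396) on day 7. The PIZ values of Tmc8 were 1.08, 0.58 and 0.30 at days 3, 7 and 14, none called. Tmc4 was the 1 gene of the list called downregulated, in the EZ at day 7 (-0.73, SE 0.23, adjusted p = 0.00702). In the EZ this made 2 called genes on day 3 and 3 on day 7, where 24.7% and 32.5% of all genes were called, and 1 at day 7 without mice 21, 27 and 35, against 16.8% of all genes. The 2 most abundant genes of the list, the zinc exporter Slc30a1 and Tmc7, were not called in any comparison, with PIZ values of -0.16, -0.04 and -0.29 and of -0.08, 0.08 and -0.05. The list median in the PIZ was 0.23, 0.20 and -0.05 at the 3 days, beside 0.02, 0.01 and 0.00 for all genes.

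Of the BTG and TOB family, 4 of 5 genes other than Btg3 were tested, and 1 was called in any of the 6 comparisons. Btg2, an early response gene, rose in the EZ by 1.52 (SE 0.26, edgeR adjusted p = 1.45e-05) at day 3 and 1.23 (SE 0.26, adjusted p = 0.000125) at day 7, and had PIZ values of 0.02, -0.48 and -0.43. This 1 of 4 lies near the 24.7% and 32.5% of all genes called in the EZ at these days. Btg1, the most abundant of the family, had PIZ values of 0.20, 0.05 and 0.03. In the PIZ the edgeR count for this family was 0 at each day, against 8.69%, 0.201% and 0.014% of all genes, with 0 at an unadjusted p under 0.05 and 0 by DESeq2 and limma-voom. No gene of the CCR4-NOT list was called by edgeR in any of the 6 comparisons (0 of 11). In the EZ 24.7%, 32.5% and 2.36% of all genes were called at days 3, 7 and 14. In the PIZ the shares were 8.69%, 0.201% and 0.014%. At day 3, 7 in the EZ and 7 in the PIZ had an unadjusted p under 0.05, as had 11537 and 7641 of all 21390 genes. DESeq2 called 0 and limma-voom 1, in the EZ at day 7. The medians of this list lay between -0.14 and 0.01.

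Among the FHF complex genes, 7 of 7 were tested. Fhip1b, the close relative of Fhip1a, fell in the EZ by 0.59 (SE 0.11, edgeR adjusted p = 5.78e-05) at day 3 and 0.65 (SE 0.11, adjusted p = 7.79e-06) at day 7 on the log2 scale. Hook1, which links the complex to dynein, fell by 0.64 (adjusted p = 0.00723) and 0.84 (adjusted p = 0.000463). These 2 of 7 at each day compare with 24.7% and 32.5% of all genes called, and without mice 21, 27 and 35 the day 7 count was 0, against 16.8% of all genes. Hook3, the most abundant of the list, lay between -0.12 and 0.00 in all 6 comparisons. In the PIZ the list median lay between -0.03 and 0.00, and the edgeR count was 0, against 8.69%, 0.201% and 0.014% of all genes at the 3 days, with 2, 0 and 0 genes at an unadjusted p under 0.05 and 0 by DESeq2 and limma-voom. Of the other lipid flippases and their subunits, 15 of 16 were tested. In the EZ 2 rose (Atp8b1 and Atp8b4) and 1 fell (Atp8a2) at day 3. At day 7 Atp8b1, Atp8b4 and Atp10a rose and 2 fell. The latter were Atp9a, which fell by 0.85 (adjusted p = 5.54e-06), and the flippase subunit Tmem30a, which fell by 0.78 (adjusted p = 3.35e-06). The 3 of 15 at day 3 and 5 of 15 at day 7 lie near the shares of all genes called, 24.7% and 32.5%, and without mice 21, 27 and 35 the day 7 count was 1. In the PIZ the edgeR count was 0 at each day, against the same shares, with 4, 2 and 0 at an unadjusted p under 0.05, and DESeq2 and limma-voom each called 1 at day 3.

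Oligodendrocyte genes were read beside Atp10b and 9630013A20Rik. Of 9 newly formed oligodendrocyte genes, all tested, 8 rose in the EZ at day 7, where 32.5% of all genes were called (list median 1.45, against 0.01 for all genes). Without mice 21, 27 and 35 the count was 3 of 9 and the median 0.57, against 16.8% of all genes. With all mice the called genes included Enpp6 (1.87, SE 0.38, edgeR adjusted p = 7.04e-05), Bcas1 (1.36, SE 0.29, adjusted p = 0.000146) and Gpr17 (1.62, SE 0.29, adjusted p = 1.37e-05). Fyn, the most abundant, was the 1 not called (0.39, adjusted p = 5.07e-05), being under the fold limit. Their summed level there was 1100 and 1050 CPM in mice 21 and 35 and 455 and 487 CPM in mice 23 and 26, against 316 to 390 CPM in saline, so that the mice with high 9630013A20Rik were those with high list sums. The same 2 mice were the highest of the 4 for other lists too, with 1090 and 1120 CPM of oligodendrocyte precursor genes against 587 and 682 CPM, 10800 and 7140 CPM of mature oligodendrocyte genes against 4170 and 3670 CPM, and 438 CPM each of endothelial genes against 243 and 299 CPM, beside the microglial sums given above. The PIZ at day 7 was different, with a summed level of 305 to 339 CPM in kainate and 286 to 331 CPM in saline, and a list median of 0.11. There the edgeR count was 0 of 9, against 0.201% of all genes, with 3 at an unadjusted p under 0.05, 1 by DESeq2 and 3 by limma-voom. The 9 log2 fold changes ran from -0.36 (Bmp4) to 1.55 (Tmem163), with Enpp6 at 1.08, Gpr17 at 0.11, Fyn at 0.00 and Bcas1 at -0.10. Mature oligodendrocyte genes summed to 3090 to 4960 CPM in the PIZ kainate libraries of day 7 and 2130 to 3340 CPM in the saline libraries, with 0 of 10 called by edgeR, 4 at an unadjusted p under 0.05, 0 by DESeq2 and 3 by limma-voom. Oligodendrocyte precursor genes summed to 479 to 537 and 470 to 574 CPM. At day 3 the newly formed oligodendrocyte sums were higher in kainate mice without overlap, while Atp10b and 9630013A20Rik had negative log2 fold changes. They were 422 to 640 against 304 to 319 CPM in the PIZ, with 3 of 9 called (Gpr17, Neu4 and Itpr2, against 8.69% of all genes, list median 0.74), and 461 to 541 against 369 to 400 CPM in the EZ, with 1 of 9 called (Itpr2, against 24.7%, list median 0.40). The list was not uniform at day 3. Enpp6 and Tmem163 had negative log2 fold changes, -0.12 and -1.01 in the PIZ and -0.80 and -0.815 in the EZ, none called. The part of these cell types in the Atp10b and 9630013A20Rik values was not tested.

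Markers of other cells also differed between PIZ groups, in lists that changed with the day. Microglial markers summed to 1440 to 1800 CPM in kainate and 380 to 530 CPM in saline at day 3, and 10 of 10 were called, where 8.69% of all genes were. The shares of all genes called at days 7 and 14 were 0.201% and 0.014%. At day 7 the sums of 560 to 1130 and 423 to 530 CPM still did not overlap, with 0 of 10 called by edgeR, 5 at an unadjusted p under 0.05, 0 by DESeq2 and 9 by limma-voom. By day 14 they were 458 to 607 and 409 to 472 CPM, with 0 of 10 called by edgeR, DESeq2 or limma-voom and 0 at an unadjusted p under 0.05. Astrocyte sums were 10300 to 11300 against 4990 to 6530 CPM at day 3, with 5 of 10 called by edgeR. They were 5730 to 7720 against 5270 to 5780 CPM at day 7 and 5090 to 7500 against 5530 to 6050 CPM at day 14, with 0 called. Proliferation genes summed to 181 to 237 against 99.6 to 111 CPM at day 3, with 6 of 10 called, and 0 were called later. Choroid plexus genes had list medians of -0.13, 1.96 and 1.52, with 0 of 5 tested genes called and overlapping sums at each day.

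Granule cell sums in the PIZ were 599 to 686 CPM in kainate at day 3, against 586 CPM in saline mouse 18 and 834 to 1090 CPM in the other 3 saline mice. At day 7 they were 428 to 774 CPM against 876 to 1080 CPM. At day 14 they were 692 to 829 CPM in kainate, below 3 saline libraries of 1000 to 1030 CPM and above the fourth, mouse 39, at 541 CPM. Of the 6 granule cell genes, edgeR called 1, 0 and 0 in the PIZ at days 3, 7 and 14, against 8.69%, 0.201% and 0.014% of all genes. The list medians were -0.49, -0.57 and -0.22. Without mouse 39 the day 14 log2 fold changes were 1.73 for Tmc6, -0.64 for Btg3 and -1.99 for Fhip1a.

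The sums of 2 lists overlapped between PIZ groups at day 3 and not at day 14. Immature neuron genes had a median log2 fold change of 0.20 at day 3, 1.06 at day 7 and 1.16 at day 14. They summed to 146 to 185 CPM in kainate and 74.9 to 106 CPM in saline at day 14, with 5 of 6 at an unadjusted p under 0.05, 1 called by edgeR (Igfbpl1, log2 fold change 1.88), 1 by DESeq2 and 4 by limma-voom. At day 7 the counts were 5, 0, 1 and 5 in the same order. Over all 21390 tested genes they were 1277, 3, 9 and 99 at day 14 and 3104, 43, 195 and 896 at day 7. Mature oligodendrocyte genes had medians of -0.10, 0.31 and 0.54. They summed to 2960 to 3930 CPM in kainate and 1600 to 2730 CPM in saline at day 14, with 0 of 10 called by edgeR, 3 at an unadjusted p under 0.05 and 0 by DESeq2 or limma-voom. The part of these cells in the Tmc6, Btg3 and Fhip1a values was not tested.

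The genes whose pattern over the 24 PIZ libraries was most like that of a member were found by Pearson's r of log2 CPM. All of these libraries share the kainate and saline groups, which set most of r, so the values are a description. For Tmc6 they were Slc7a4 (r = 0.957), Rprm (0.947) and Klhdc8b (0.938). For Btg3 they were Plppr4 (0.947), Pip5k1b (0.945) and Slitrk5 (0.936), and for Fhip1a they included Slitrk3 (0.948) and Calb1 (0.947), the calbindin gene of mature granule cells. Calb1 had PIZ log2 fold changes of -2.37, -1.33 and -1.25 at days 3, 7 and 14, next to -2.92, -2.39 and -1.85 for Fhip1a. For 2900052N01Rik they were Ptprr (0.936), Peg13 (0.936) and Ralyl (0.933). Atp10b and 9630013A20Rik were each other's nearest gene (r = 0.837), followed by Adamts4 (0.810) and Tmem125 (0.791) for Atp10b and by Enpp6 (0.825) and Adamts4 (0.810) for 9630013A20Rik.

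Some of these likenesses did not carry over to the EZ. Over the 24 EZ libraries r was 0.847 for Atp10b with 9630013A20Rik and 0.924 for 9630013A20Rik with Enpp6, but -0.217 for Tmc6 with Slc7a4. In the EZ Rprm rose at day 3 by 2.03 (edgeR adjusted p = 0.000643) and Klhdc8b rose at day 7 by 0.87 (adjusted p = 5.66e-05). After the group means were removed, over all 48 libraries, r was 0.397 for Atp10b with 9630013A20Rik, -0.398 for Fhip1a with 9630013A20Rik and 0.062 for Tmc6 with Btg3.

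The nearest tested genes on the chromosome had no called PIZ difference at day 7 or 14, when 0.201% and 0.014% of all genes had one, so that no call is also what the background gives. Beside Tmc6, Tnrc6c had PIZ log2 fold changes of -0.05, -0.13 and -0.06 at days 3, 7 and 14, and Syngr2 had 1.0, 0.49 and 0.07. In the EZ Syngr2 was called upregulated at all 3 days, at 1.7, 2.7 and 1.27 (edgeR adjusted p = 2.76e-05, 3.13e-08 and 0.00899). Tnrc6c was called downregulated there at day 7 (-0.84, adjusted p = 8.82e-05). The EZ shares of all genes called were 24.7%, 32.5% and 2.36%. Beside Btg3, D16Ertd472e had -0.97, -0.41 and -0.45 and E330011O21Rik had -0.50, 0.39 and 0.25, and the overlapping opposite-strand gene Cxadr had -0.33, 0.43 and 0.23. Next to Fhip1a, Gatb had 0.08, -0.09 and -0.02 and Gm9790 had -0.08, 0.15 and -0.18. Gabrb2 and Pttg1, beside Atp10b, lay between -0.27 and 0.03. Around 9630013A20Rik, where Diaph3 is 2178926 and Olfm4 4435500 bases away, Diaph3 had 0.99, 0.26 and 0.16, Olfm4 1.67, 0.82 and 1.39, and the overlapping opposite-strand gene Pcdh17 0.14, 0.02 and 0.08. Bud13 and Gm31698, beside 2900052N01Rik, had -0.03, 0.02 and 0.16 and -1.56, 0.56 and -1.03. At day 3, D16Ertd472e, Olfm4 and Gm31614, which overlaps 2900052N01Rik, were called in the PIZ, against 8.69% of all genes.

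Ordered by mean level over the 12 groups, Tmc6 ran from 27.6 CPM in the PIZ of kainate mice at day 3 to 4.18 CPM in saline PIZ at day 3, with all 6 kainate groups above all 6 saline groups. Neighbours in this order overlapped in 9 of 11 steps, and the steps that did not were between PIZ kainate day 3 and day 7 and between the lowest kainate group and the highest saline group. Btg3 ran from 12.6 to 6.26 CPM with overlap in 11 of 11 steps, again with all saline groups above all kainate groups, and the 3 PIZ kainate groups were the lowest. Fhip1a ran from 14.8 to 1.77 CPM, also with overlap in all 11 steps. 2900052N01Rik, from 41 to 7.33 CPM, had 1 step without overlap, between the lowest saline group and the highest kainate group. Atp10b ran from 2.80 CPM in PIZ kainate day 7 to 0.309 CPM in EZ kainate day 3, a group apart from the next. 9630013A20Rik ran from 11.9 CPM in PIZ kainate day 7 to 1.02 CPM in EZ kainate day 3, with overlap in all 11 steps.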

How the data were processed

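RNA was measured in 48 dentate gyrus libraries of 24 mice. Poly-A selected, strand-specific libraries were made, and the authors trimmed reads with fastp 0.20.1, aligned them with HISAT2 2.2.1 to GRCm39 and counted them with featureCounts (Subread 1.6.4) on Gencode M28. The deposited values are raw counts per gene, without normalization, with multi-mapping reads at their primary alignment. Reads were assigned by strand and by their largest overlap with a gene.

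The counts were fitted with edgeR 4.0.16 (R 4.3.3) in 1 quasi-likelihood model with TMM scaling, for the 21390 genes, holding 99.92% of counts, that filterByExpr kept over 12 groups. Log2 CPM used a prior count of 2. Calls needed an adjusted p below 0.01 and more than a 1.5-fold change. Replicates are separate mice. Positions are from Gencode M39, to which 98.9% of identifiers matched. Promoters are from RefSeq.

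The members, the gene lists and the comparisons were chosen with earlier results of these data known. Genes named are the members, their nearest tested neighbours, the 3 genes most like each, the 2 most abundant genes of a list, those called in the PIZ at day 7 or 14 or next to that threshold, and genes where a count was 5 or fewer. Tmem163, Bmp4, Gpr17 and the genes overlapping members were named after their values were seen. Alternatives were DESeq2 1.42.0, RLE size factors, other filters, only the compared libraries, an adjusted p under 0.05 and each mouse left out. A further alternative was limma-voom (limma 3.58.1) with mouse as a block and with library quality weights, which count deviating libraries less. The block and the weights were not fitted apart. The model was tested on simulated data. Both libraries of a mouse correlated in their residuals between -0.0536 and 0.376. Histology was not analysed here. A gene that the rule names for Fhip1a is not reported here.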

Additional observations from a re-analysis of the deposited data

Results flagged for a closer look

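Of 72 groups of 4 libraries (6 genes in 12 groups), 6 held a library whose gap to its nearest neighbour exceeded Dixon's 95% critical share of the group's range, and chance alone gives about 1 in 20. Btg3 in the EZ of kainate mice at day 3 was lowest in mouse 44, with a gap of 0.92 of the range. Mouse 39 was lowest for Fhip1a (0.86) and highest for 2900052N01Rik (0.855) in the PIZ of saline mice at day 14. 2900052N01Rik was lowest in mouse 34 in the PIZ of saline mice at day 7 (0.855). 9630013A20Rik was lowest in mouse 29 in the EZ of saline mice at day 3 (0.891) and highest in mouse 23 in the PIZ of kainate mice at day 7 (0.943), where the other 3 libraries lay between 11.6 and 11.7 CPM.

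The kainate effect in the EZ differed between day 7 and day 3 by the test of the difference itself for Atp10b, by 1.79 on the log2 scale, and for 9630013A20Rik, by 2.73. Without mice 21, 27 and 35 these were 1.35 (adjusted p = 0.0694) and 1.70 (adjusted p = 0.00239).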

How the results depend on the processing

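Leaving out 1 mouse gave 5 members called in the EZ at day 3 in each of 8 fits, 3 to 4 at day 7, 0 to 3 at day 14, 0 to 2 for day 7 minus day 3, and 0 in each fit for the other 2 comparisons. The EZ day 14 count of 1 became 3 at an adjusted p under 0.05, 0 with only the compared libraries, 2 with DESeq2, 3 with limma-voom and mouse as a random replicate block, and 0 without mice 21, 27 and 35, an alternative chosen after seeing the data. The day 7 minus day 3 count of 2 became 1 without a filter on low counts and 0 with only the compared libraries. It rose where 2900052N01Rik was also called, with DESeq2 (adjusted p = 0.001), with limma-voom (adjusted p = 0.000499) and at an adjusted p under 0.05. The day 14 minus day 7 count of 0 became 1 with limma-voom. The cause of these changes was not tested, beyond fewer libraries giving fewer residual degrees of freedom. Every PIZ value of the 6 genes stayed within the spread between mice under all alternatives run. List genes called, 198 over 6 comparisons, stayed between 170 and 255. Some EZ values that were not called with all libraries turned sign. In the EZ at day 7, Atp10b became -0.33 and 9630013A20Rik -0.11 without mice 21, 27 and 35, and Atp10b lay between -0.086 and 0.27 without 1 mouse. For day 7 minus day 3, Tmc6 (0.16) became -0.10 without those mice and lay between -0.023 and 0.50 without 1 mouse. Fhip1a (0.26) became -0.93 with limma-voom and lay between -0.092 and 0.71 without 1 mouse. For day 14 minus day 7, Btg3 (-0.02) became 0.00086 with RLE size factors, 0.0021 with DESeq2, 0.031 without a filter and 0.048 without those mice, and lay between -0.066 and 0.046 without 1 mouse. Fhip1a (0.08) became -0.22 and lay between -0.32 and 0.43, and 9630013A20Rik (-0.06) became 0.20 and lay between -0.84 and 0.22.

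Counts over all genes moved more. In the PIZ at day 3, 1858 genes became 2818 at an adjusted p under 0.05 and 2788 with limma-voom. The 43 PIZ genes of day 7 became 229 and 896 under these, 195 with DESeq2, 154 with only the compared libraries, 603 without mice 21, 27 and 35, and 7 to 76 without 1 mouse, and the 3 of day 14 became 6, 99, 9, 3, 15 and 2 to 3. In the EZ, 6960 genes of day 7 became 3847 with only the compared libraries and 3679 without mice 21, 27 and 35. The 504 of day 14 became 1030 at an adjusted p under 0.05, 304 with at least 10 counts in every library, 0 with only the compared libraries, 56 with limma-voom, 20 without those mice and 7 to 893 without 1 mouse. For day 7 minus day 3, 31 became 104 at an adjusted p under 0.05, 3 with only the compared libraries, 98 with DESeq2, 1320 with limma-voom, 76 without those mice and 8 to 83 without 1 mouse. For day 14 minus day 7, 58 became 2378, 0, 898, 6378, 1540 and 1 to 4087 in the same order, with 4 without a filter and 97 at 10 counts. For saline day 14 against day 3, 0 became 3, 18, 4, 142, 100 and 0 to 29, with 1 without a filter. The genes most like each member depended on the measure, with 0 or 1 of 3 kept by Spearman's rho or in the EZ. Atp10b had too few counts to be fitted under the filter of 10 counts in every library.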
